A study of Mus musculus with 4 samples.

Results

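The unfolded protein and amino acid stress genes are 39 of the 17568 genes in the deposited expression table, taken by gene name from a list of the pathway. They comprise 13 chaperones and folding enzymes of the endoplasmic reticulum (ER), 4 genes of ER-associated degradation, 6 stress sensors and transcription factors, and 16 targets of the transcription factor ATF4. All 39 were found in the table, and 38 reached the mean of 1 CPM (normalized counts per 1000000 reads) needed to be tested. The exception was Cebpb, which encodes a transcription factor of the C/EBP family.

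Expression was measured by RNA sequencing on the SOLiD platform, a ligation-based short-read sequencer. The tissue was forelimb from E10.25 embryos (31 to 34 somites) of Swiss Webster mice, all wild type. There were 2 libraries from forelimbs cultured with cyclopamine, a plant alkaloid that inhibits the Hedgehog signal transducer Smoothened, and 2 libraries from forelimbs cultured in control medium. All 4 libraries therefore come from tissue that had been explanted and cultured, and uncultured limb was not analysed here. No label states the dose, the vehicle, the time in culture or how many embryos each library drew on.

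Proteins that enter the secretory pathway are folded in the ER by chaperones of the HSP70 and HSP90 families, by the lectin chaperones calnexin and calreticulin, and by protein disulfide isomerases. When unfolded proteins accumulate, the sensors ATF6, IRE1 (gene Ern1) and PERK (gene Eif2ak3) switch on the unfolded protein response. ATF6 and XBP1 raise chaperone and degradation genes, whereas PERK, and the amino acid sensor GCN2 (gene Eif2ak4), phosphorylate the initiation factor eIF2 alpha and so raise translation of ATF4. ATF4 then induces genes of amino acid synthesis and uptake together with regulators of the stress response, so the chaperones and the ATF4 targets report on separable branches.

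Some promoters of these genes carry sequences through which the branches are known to act. They are shown here because the matches found differed between the chaperones and the ATF4 targets, although many windows held none. RefSeq promoter windows (GRCm38.p6, 250 bases before to 50 bases after the annotated start) were available for 35 of the 39 genes. They were searched on both strands for the ER stress response element (ERSE: CCAAT, then 9 bases of any kind, then CCACG), the related ERSE-II (ATTGG, 1 base of any kind, CCACG), the unfolded protein response element (UPRE, TGACGTGG) and the C/EBP-ATF response element bound by ATF4 (CARE, TGATGNAAN, where N is any base). The ERSE, ERSE-II and UPRE share the run CCACG on one or the other strand, so matches to them can overlap. An ERSE was found in 7 of 11 chaperone windows, and in 0.19% of the windows of 10015 tested genes. Among the 15 windows of ATF4 targets, 0 held an ERSE and 5 held a CARE (Trib3, Chac1, Asns, Slc7a11 and Vldlr), against 2.69% of tested genes. No member window held the UPRE (0 of 35), which 1.15% of tested genes carried. Herpud1, a gene of ER-associated degradation, held both an ERSE-II and a CARE. A match describes the letters in the window and does not show that a factor binds there.

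Selected matches upstream of the start are printed 5′ to 3′ on the strand of the gene. The motif is in capitals, with 15 bases on either side where they lie before the start. ERSE matches of Calr, Canx, Pdia6, Dnajc3 and Syvn1, and a further match each in Hsp90b1 and Slc7a11, are not printed. The CARE of Trib3 lies after the start and is not printed either. The chaperone genes printed are Hspa5 (chr2:34772010-34772058, plus strand) and Hsp90b1 (chr10:86705518-86705566, minus strand, motif on the opposite strand). Creld2 is printed too (chr15:88819505-88819553, plus strand, motif on the opposite strand). Herpud1 is shown for its ERSE-II (chr8:94386362-94386402) and its CARE (chr8:94386301-94386339, motif on the opposite strand), on the plus strand. The ATF4 targets printed are Chac1 (chr2:119351033-119351071, plus strand, motif on the opposite strand), Asns (chr6:7693210-7693247, minus strand) and Slc7a11 (chr3:50443656-50443694, minus strand). Vldlr is printed as well (chr19:27216804-27216842, plus strand, motif on the opposite strand).
Hspa5 ERSE: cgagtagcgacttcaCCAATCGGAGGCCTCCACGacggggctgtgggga
Hsp90b1 ERSE: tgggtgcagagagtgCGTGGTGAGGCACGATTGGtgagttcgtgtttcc
Creld2 ERSE: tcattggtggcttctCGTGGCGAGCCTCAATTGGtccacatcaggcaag
Herpud1 ERSE-II: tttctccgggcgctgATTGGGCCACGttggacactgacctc
Herpud1 CARE: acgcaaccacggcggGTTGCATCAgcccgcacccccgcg
Chac1 CARE: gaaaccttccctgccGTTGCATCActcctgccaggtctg
Asns CARE: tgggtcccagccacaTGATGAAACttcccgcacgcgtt
Slc7a11 CARE: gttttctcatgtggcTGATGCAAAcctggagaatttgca
Vldlr CARE: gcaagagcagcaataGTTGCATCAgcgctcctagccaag

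The libraries held between 9779589 and 13555492 reads assigned to genes. Pearson's r of log2 values across tested genes was between 0.978 and 0.986 for the 6 pairs of libraries, with genes not being independent replicates. The highest r, 0.986, was between cyclopamine 1 and control 1. Within a medium r was 0.982 for cyclopamine and 0.983 for control, and between cyclopamine 2 and control 2 it was 0.981. Tbx5, which defines the forelimb, measured 193 and 226 CPM in cyclopamine and 201 and 224 CPM in control, while Tbx4, a hindlimb gene, stayed at 9.9 CPM or less in every library. Gli1, a direct Hedgehog target, fell by 3.10 on the log2 scale (SE 0.23, limma adjusted p = 4.32e-06), to 8.05 and 4.70 CPM in cyclopamine, against 56.2 and 56.7 CPM in control. Over the whole table limma called 38 of 13568 genes, or 0.28%, at an adjusted p under 0.05. In bulk tissue, fewer cells of a type and less RNA per cell cannot be told apart.

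None of the stress genes passed that threshold. Limma called 0 of the 38 tested genes higher, against 0.0442% of all genes tested, and 0 lower, against 0.236% (0.28% in either direction), and so did edgeR's quasi-likelihood test and DESeq2 on the recovered reads (0 each), which called 0.295% and 0.383% of all genes tested. At an unadjusted p under 0.05, limma had 3 stress genes higher in cyclopamine (Herpud1, Trib3 and Chac1) and 0 lower, against 3.04% of all genes higher and 2.78% lower. The corresponding count was 5 of 38 in edgeR, against 6.01% of all genes, and 3 of 38 in DESeq2, against 3.83%. A false discovery rate under 0.05 in the authors' deposited table was listed for 0 of the 39 genes and for 0.455% of all its genes, and the smallest of the 39 was 0.34, for Trib3. With 2 libraries per group an exact permutation test cannot give a two-sided p below 0.333.

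The direction of the differences was uneven. Of the 38 genes, 28 (73.7%) had a log2 fold change above 0 (cyclopamine over control, on log2(CPM + 0.5)), compared with 51% of all genes tested. The median over the 38 was 0.15, against 0.0045 over all genes tested. Both cyclopamine libraries lay above both controls for 10 genes (26.3%), where 16.8% of all genes did so, and below both controls for 1 gene, Ern1 (2.63%), where 15.8% did. For the remaining 27 genes the groups overlapped. The medians by role were 0.12 for the chaperones, 0.072 for ER-associated degradation and 0.12 for sensors and transcription factors. For the 15 tested ATF4 targets the median was 0.34.

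**Figure D1:**
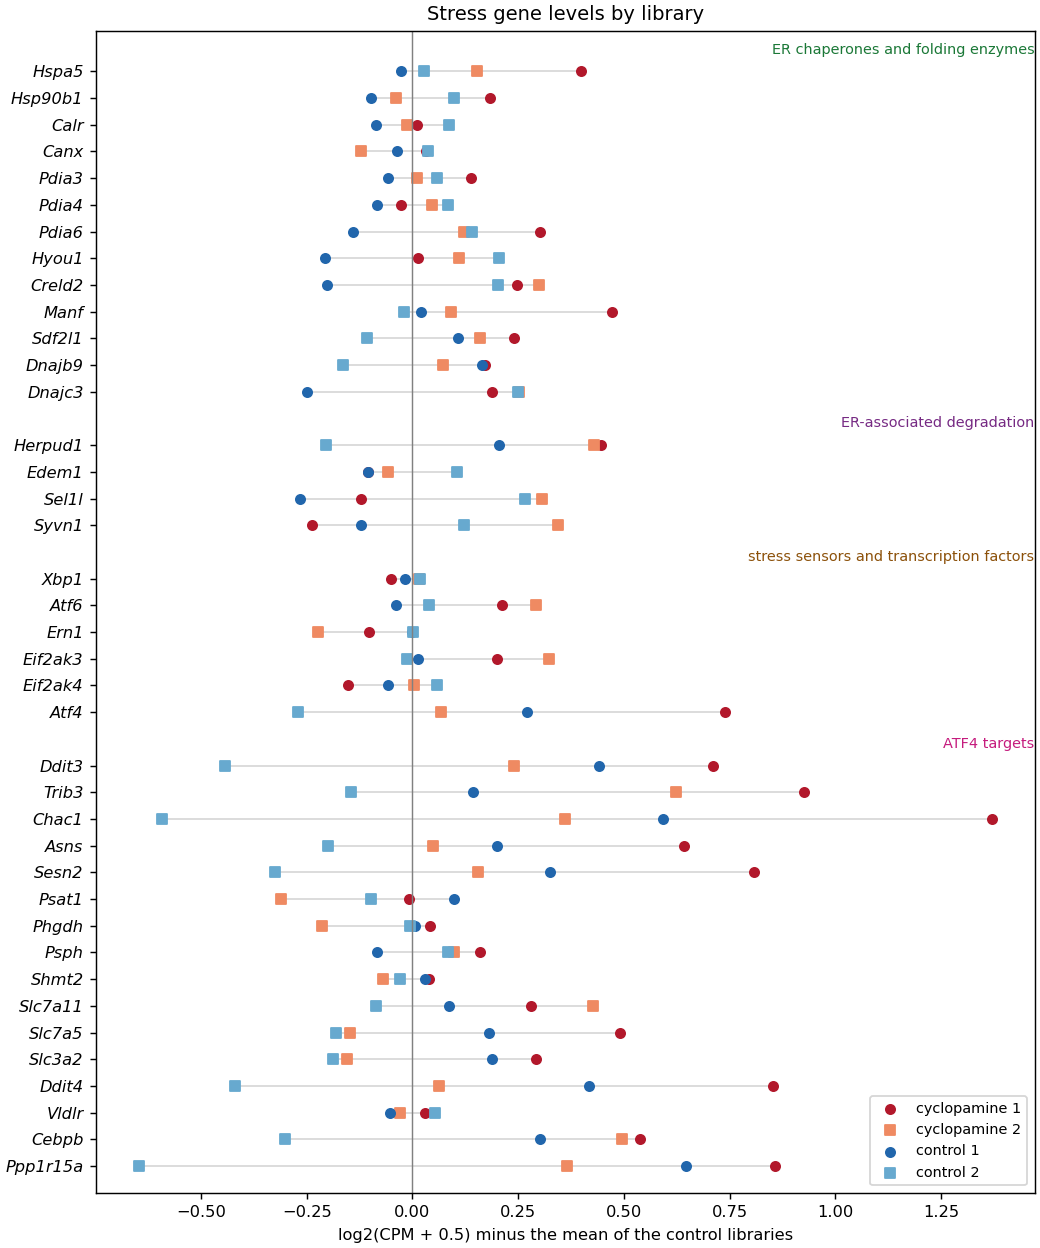
Level of each of the 39 genes in each library, as log2(CPM + 0.5) minus the mean of the 2 control libraries, with genes grouped by role. Atf4 and 8 of its 15 tested targets have the order control 2, cyclopamine 2, control 1 and cyclopamine 1, from low to high. Among the chaperones Dnajc3, Hyou1 and Creld2 have control 1 well below control 2.

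The ER chaperones were abundant and showed small differences. Per kilobase of annotated exon (GENCODE vM21), Hsp90b1, the ER member of the HSP90 family, had the highest level of the 39 genes, at 317 CPM per kb in cyclopamine and 301 CPM per kb in control. It was followed by the disulfide isomerase gene Pdia3 (227 CPM per kb in cyclopamine and 215 in control) and by Calr, encoding calreticulin (199 in both). The lowest chaperone levels per kilobase were those of the co-chaperone genes Dnajb9 and Sdf2l1, between 10.16 and 11.8 CPM per kb. Deposited CPM of Hsp90b1 was 1375 and 1178 in cyclopamine, against 1131 and 1296 in control, so the groups overlapped and the control libraries differed by more than the group means. Exons of Hsp90b1, Pdia3, Pdia4, Pdia6, Manf and Dnajb9 overlap other annotated genes, and the sources used here do not state how strand was handled.

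Hspa5, which encodes BiP, the HSP70 chaperone of the ER and the classical marker of ER stress, was higher in cyclopamine by less than the test could resolve. It measured 761.99 and 643 CPM in cyclopamine, against 568 and 589 CPM in control, so both cyclopamine libraries were above both controls. The log2 fold change was 0.28 (SE 0.18), with a 95% interval from 0.932-fold to 1.57-fold, and it did not pass in limma (adjusted p = 0.977). Manf, a secreted ER-stress-inducible factor, measured 142 and 109 CPM in cyclopamine, against 103 and 101 CPM in control (log2 fold change 0.28, SE 0.16, limma adjusted p = 0.947). The separation of Manf rested on cyclopamine 1, since cyclopamine 2 lay close to the controls.

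Creld2, a disulfide isomerase-like protein gene, measured 30.9 and 32.1 CPM in cyclopamine, against 22.5 and 30.0 CPM in control. Sdf2l1, whose product is part of the BiP chaperone complex, measured 13.4 and 12.6 CPM in cyclopamine, against 12.2 and 10.4 CPM in control. Both genes were higher in both cyclopamine libraries, by margins smaller than the gap between the controls. Pdia6 had 281 and 248 CPM in cyclopamine, against 206 and 251 CPM in control. Dnajc3, a co-chaperone that also inhibits PERK, had 78.3 and 81.8 CPM in cyclopamine, against 57.7 and 81.8 CPM in control, with control 1 standing below the other 3 libraries.

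No difference was detectable for the lectin chaperones. Calr had 577 and 568 CPM in cyclopamine, against 540 and 608 CPM in control, and the 95% interval of its fold change ran from 0.777 to 1.29. Canx, encoding calnexin, had 797 and 717 CPM in cyclopamine, against 760 and 800 CPM in control, with an interval from 0.742-fold to 1.27-fold. Pdia3, which works with both lectins on glycoproteins, had 742 and 680 CPM in cyclopamine, against 649 and 702 CPM in control. The remaining chaperone genes, Pdia4, Hyou1 (a large HSP70-like chaperone) and Dnajb9, had log2 fold changes of 0.011, 0.062 and 0.12 and overlapping groups. In all, 11 of the 13 chaperone genes had a fold change above 0, against 51% of all genes tested. For 11 of the 13 the 2 control libraries differed by more than the group difference. The same held for 8541 of the 13568 genes tested and for 12 of the 15 tested ATF4 targets. The median log2 fold change of the chaperones was 0.017 without control 1.

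Of the 4 genes of ER-associated degradation, Herpud1 differed most. Its product belongs to the ubiquitin ligase complex that removes misfolded proteins from the ER. Herpud1 (GRCm38 chromosome 8, 94386438 to 94395377) measured 57.2 and 56.6 CPM in cyclopamine, against 48.3 and 36.3 CPM in control. The cyclopamine libraries nearly coincided and both exceeded both controls. The log2 fold change was 0.44 (SE 0.17), with a 95% interval from 1.05-fold to 1.74-fold, and it did not pass over all genes (limma adjusted p = 0.683). It was 0.23 to 0.64 when each library was left out.

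The other genes of that machinery showed no such separation. Edem1, which extracts misfolded glycoproteins from the folding cycle, had 74.8 and 77.3 CPM in cyclopamine, against 74.8 and 86.7 CPM in control. Syvn1, the ubiquitin ligase of the complex, had 39.7 and 59.6 CPM in cyclopamine, against 43.0 and 51.1 CPM in control. Its partner Sel1l had 119 and 160 CPM in cyclopamine, against 107 and 156 CPM in control. For Syvn1 and Sel1l both second libraries were higher than both first libraries, whichever the medium. The median over the 4 genes ran from -0.12 without control 1 to 0.32 without cyclopamine 1.

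None of the sensor genes passed the threshold, and differences between them were not tested. Atf6 measured 42.8 and 45.3 CPM in cyclopamine, against 35.9 and 37.9 CPM in control (log2 fold change 0.25, SE 0.16, limma adjusted p = 0.977). Eif2ak3, encoding PERK, measured 34.2 and 37.2 CPM in cyclopamine, against 29.9 and 29.4 CPM in control (log2 fold change 0.26, SE 0.17, limma adjusted p = 0.977). The libraries of each medium lay close together for both genes, and the groups did not overlap. For Atf6 and Eif2ak3 the fold change kept its sign in all 4 fits that left out a library, at 0.21 to 0.29 and 0.20 to 0.32.

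Ern1, encoding IRE1, was the single gene of the 39 with both cyclopamine libraries below both controls. It measured 14.7 and 13.5 CPM in cyclopamine, against 15.8 CPM in both control libraries (log2 fold change -0.16, SE 0.21). Xbp1, whose mRNA is spliced by IRE1 into the form that encodes the active factor, had 59.2 and 62.1 CPM in cyclopamine, against 60.7 and 62.2 CPM in control, and its 95% interval ran from 0.791-fold to 1.23-fold. Gene-level values do not separate spliced from unspliced Xbp1. Eif2ak4, encoding the amino acid sensor GCN2, had 75.8 and 84.6 CPM in cyclopamine, against 81.0 and 87.8 CPM in control.

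Atf4 mRNA was higher on average in cyclopamine, with the groups overlapping. It measured 354 and 222 CPM in cyclopamine, against 256 and 176 CPM in control. The order of the libraries was cyclopamine 1, control 1, cyclopamine 2 and control 2. The log2 fold change was 0.40 (SE 0.21), with a 95% interval from 0.964-fold to 1.81-fold (limma adjusted p = 0.908), and it was 0.067 without cyclopamine 1 and 0.13 without control 2. ATF4 is controlled mainly at translation, so its mRNA level is an incomplete measure of its activity.

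**Figure D2:**
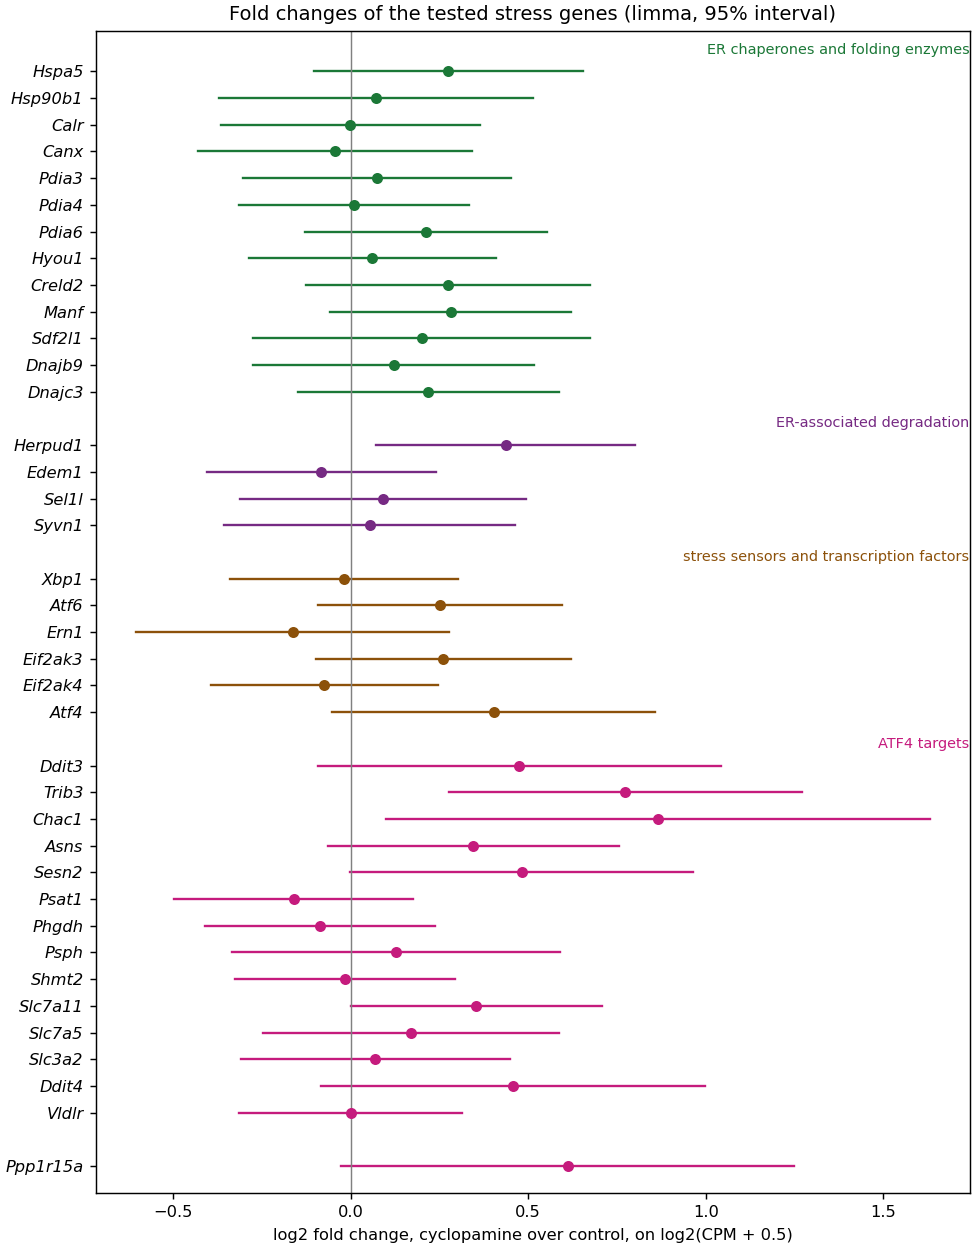
Log2 fold change of the 38 tested genes, cyclopamine over control, with limma's 95% interval, grouped by role; Cebpb was not tested. The intervals of Herpud1, Trib3 and Chac1 lie above 0 before adjustment for the number of genes tested. Those of all other tested genes span 0.

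The ATF4 targets divide by known function into regulators of the stress response, amino acid transporters with asparagine synthetase, and enzymes of serine and one-carbon metabolism. The regulators included the largest fold changes. Trib3, a pseudokinase that restrains ATF4, was the gene nearest to the threshold and the only regulator tested for which the groups did not overlap. It measured 17.2 and 13.9 CPM in cyclopamine (218 and 171 reads), against 9.80 and 7.93 CPM in control (95 and 108 reads). The log2 fold change was 0.77 (SE 0.23), with a 95% interval from 1.21-fold to 2.41-fold and a limma adjusted p = 0.386, and it stayed between 0.62 and 0.92 when each library was left out. Trib3 lies on GRCm38 chromosome 2, 152337422 to 152344032, on the minus strand.

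Chac1, which degrades glutathione and is induced through ATF4, had the largest fold change of the 38 genes. It measured 21.2 and 10.29 CPM in cyclopamine (269 and 127 reads), against 12.2 and 5.07 CPM in control (118 and 69 reads). Its log2 fold change was 0.87 (SE 0.36, limma adjusted p = 0.769), but cyclopamine 2 lay below control 1. Leaving out a library leaves its group with 1, which limma then takes to vary like the other group. The following calls therefore rest on a single pair and on the spread that limma shares across genes of similar level. Without cyclopamine 2 the log2 fold change of Chac1 was 1.37 and passed (limma adjusted p = 0.0111), and without control 2 it was 0.27. Leaving out each library in turn gave Chac1 limma adjusted p between 0.0111 and 0.9997.

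The same order of libraries was seen in further regulators. Sesn2, a stress-induced inhibitor of the growth kinase mTORC1, measured 68.6 and 43.4 CPM in cyclopamine, against 48.9 and 31.0 CPM in control. Ddit4, another mTORC1 inhibitor, induced by hypoxia as well, measured 349 and 201 CPM in cyclopamine, against 258 and 144 CPM in control. Ppp1r15a, the eIF2 alpha phosphatase subunit GADD34 that ends the response, measured 48.4 and 34.3 CPM in cyclopamine, against 41.8 and 16.8 CPM in control. In all of these, cyclopamine 1 was the highest library, control 2 the lowest, and control 1 exceeded cyclopamine 2.

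Their fold changes did not pass in the limma fit used here, which does not pair libraries by number. The fit with a replicate block is given in the closing section. Log2 fold changes were 0.48 (SE 0.23) for Sesn2, 0.46 (SE 0.25) for Ddit4 and 0.61 (SE 0.30) for Ppp1r15a, with limma adjusted p between 0.857 and 0.946. Ddit4 passed without cyclopamine 2 (0.85, limma adjusted p = 0.0111) and had a log2 fold change of 0.039 without control 2. Ppp1r15a passed without control 1 (1.26, limma adjusted p = 0.0108) and turned to -0.036 without control 2. With each library left out in turn, the limma adjusted p ran from 0.0111 to 0.9997 for Ddit4 and from 0.0108 to 0.9997 for Ppp1r15a. Ddit3, encoding the transcription factor CHOP, measured 24.5 and 17.5 CPM in cyclopamine, against 20.2 and 10.7 CPM in control (log2 fold change 0.47, SE 0.27). Its exons overlap Mars on the opposite strand, and Mars itself had a log2 fold change of 0.33. Cebpb, with 15 and 14 reads in cyclopamine and 9 and 6 reads in control, was too low to be tested.

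**Figure D3:**
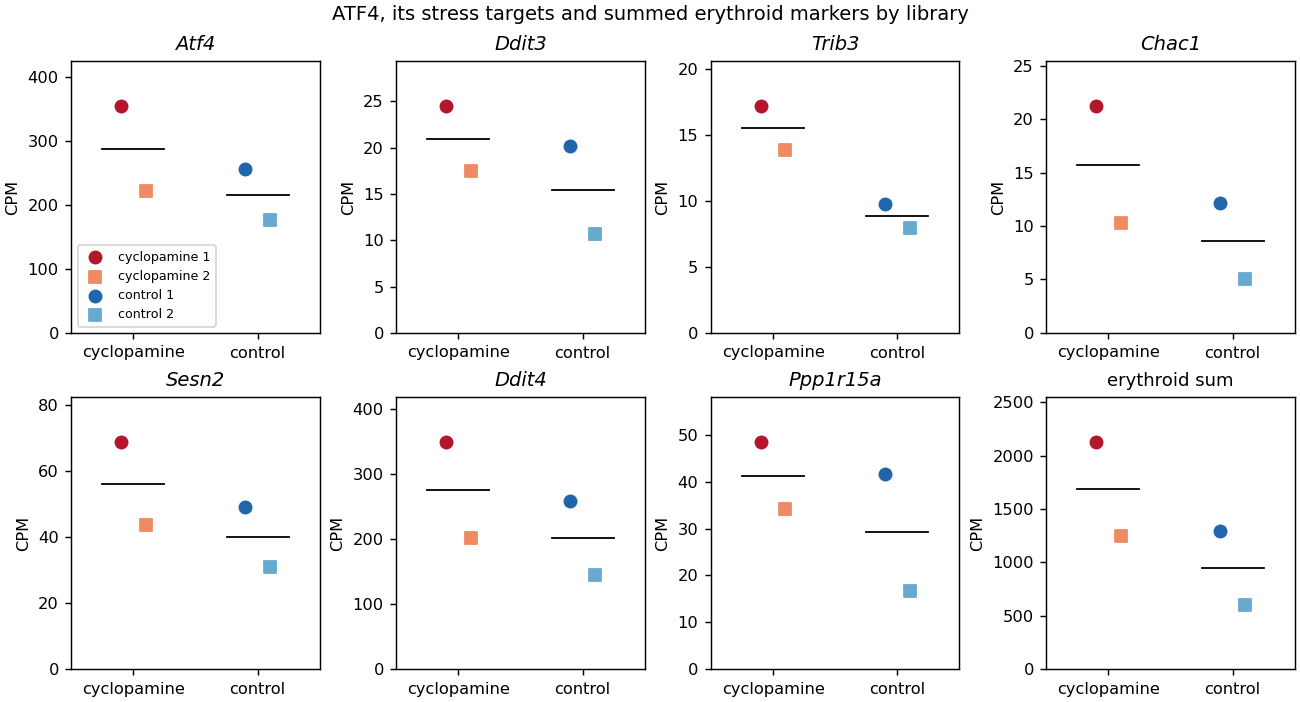
CPM of Atf4, 6 of its stress-response targets and the summed erythroid markers (Hbb-y, Hbb-bh1, Hba-x and Alas2) in each library, with cyclopamine at the left and control at the right, points for libraries and bars for group means. In every panel library 1 is above library 2 within each medium, and only for Trib3 do both cyclopamine libraries exceed both controls.

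This order, cyclopamine 1 above control 1 above cyclopamine 2 above control 2, was held by 8 of the 15 tested ATF4 targets (53.3%) and by 6.31% of all genes tested. Library 1 exceeded library 2 in both media for 12 of the 15 (80.0%), against 30.7% of all genes tested. By contrast, 3 of the 13 chaperones (23.1%) had library 1 above library 2 in both media. Across the 15 ATF4 targets the median log2 difference was 0.45 between cyclopamine 1 and cyclopamine 2 and 0.36 between control 1 and control 2. Both were as large as the median group difference of 0.34. The median group difference was 0.062 without cyclopamine 1 and 0.039 without control 2, and 0.49 without cyclopamine 2 and 0.44 without control 1.

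Summed erythroid markers followed the same order. The 4 used, of 6 listed, summed to 2123 and 1247 CPM in cyclopamine, against 1298 and 603 CPM in control, and 3 of the 4 had that order of libraries. All 4 had a log2 fold change above 0 (median 0.80), and limma called 0. At an unadjusted p under 0.05 limma had 4 higher, against 3.04% of all genes tested. In either direction edgeR had 2, against 6.01%, and DESeq2 had 0, against 3.83%. The part of the erythroid markers in the values of the ATF4 targets was not tested. Neural tube and neuron markers were lower in cyclopamine: the 9 summed to 6.86 and 10.1 CPM in cyclopamine, against 39.1 and 64.1 CPM in control. Limma called all 5 that were tested lower, against 0.236% of all genes tested. In either direction edgeR and DESeq2 called 4 each, against 0.295% and 0.383%. The mean of 1 CPM needed for testing spans both media, so these 5 entered mainly through their control libraries. Of the 9 markers, Neurod4, Olig3 and Ina had no reads in either cyclopamine library. The part of the neural markers in the stress genes' values was not tested either. Summed macrophage markers were 14.4 and 21.96 CPM in cyclopamine, against 20.2 and 21.2 CPM in control. Summed endothelial markers were 397 and 456 CPM in cyclopamine, against 365 and 369 CPM in control, with 6 of 6 fold changes above 0 (median log2 fold change 0.22) and 0 called. Of 8 limb ectoderm markers limma called 1, Fgf8, which fell by 1.64 on the log2 scale (SE 0.20, limma adjusted p = 0.000973), and the 8 summed to 278 and 229 CPM in cyclopamine, against 290 and 265 CPM in control. The part of these lists in the stress genes' values was not tested. Rn45s, a ribosomal RNA precursor, took 1.06% and 1.36% of reads in cyclopamine, against 0.995% and 0.868% in control.

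**Figure D4:**
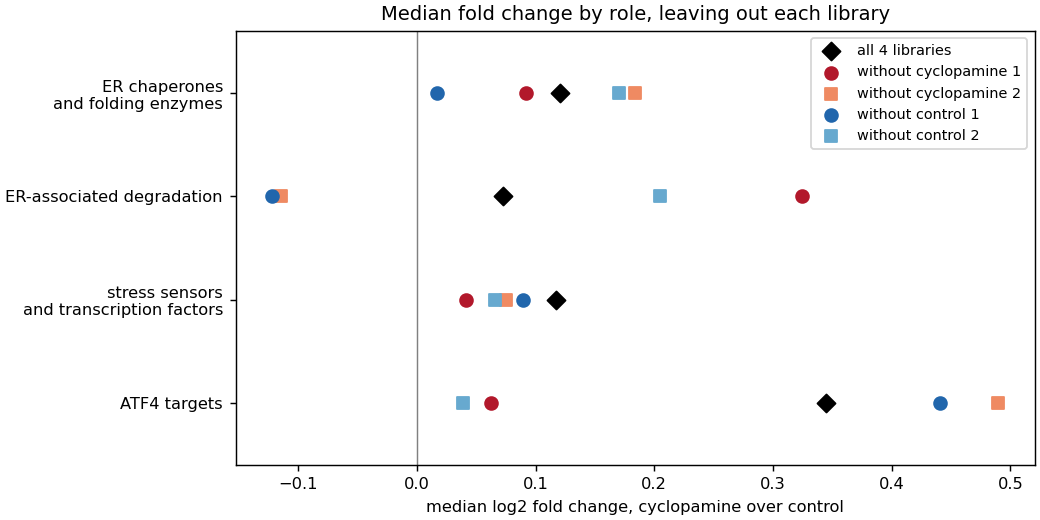
Median log2 fold change of each role, cyclopamine over control, with all 4 libraries and with each library left out in turn. The ATF4 targets lie between 0.039 and 0.49, and the chaperones between 0.017 and 0.18.

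The amino acid transporters and asparagine synthetase had log2 fold changes from 0.069 for Slc3a2 to 0.35 for Slc7a11. Differences between the groups of targets were not tested. Slc7a11, the cystine importer, measured 42.3 and 46.9 CPM in cyclopamine, against 36.9 and 32.7 CPM in control, so the groups did not overlap (log2 fold change 0.35, SE 0.17, limma adjusted p = 0.857). It kept its sign in all 4 fits that left out a library, at 0.27 to 0.44. Slc7a11 is a target of the oxidative stress factor NRF2 too. Of 10 NRF2 targets examined, Slc7a11 among them, 0 passed the threshold, against 0.28% of all genes tested. Log2 fold changes of these 10 were above 0 for 6 and below 0 for 4. They ran from -0.28 to 0.79, with Nqo1 at 0.65 and Hmox1 at 0.29.

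Asns, asparagine synthetase, measured 174 and 115 CPM in cyclopamine, against 128 and 96.9 CPM in control (log2 fold change 0.34, SE 0.19). Slc7a5, the large neutral amino acid transporter, and its heavy chain Slc3a2 had log2 fold changes of 0.17 and 0.069. Asns, Slc7a5 and Slc3a2 followed the order of libraries seen for Atf4. Vldlr, a lipoprotein and reelin receptor gene that ATF4 and hypoxia can both induce, had 88.8 and 85.1 CPM in cyclopamine, against 83.8 and 90.1 CPM in control, and its 95% interval ran from 0.805-fold to 1.24-fold.

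The enzymes of serine synthesis and one-carbon metabolism had log2 fold changes between -0.16 and 0.13. Psat1, the aminotransferase of the serine pathway, measured 135 and 109 CPM in cyclopamine, against 146 and 127 CPM in control (log2 fold change -0.16, SE 0.16, 95% interval 0.709-fold to 1.13-fold). Phgdh, which catalyses the entry step, measured 99.2 and 82.97 CPM in cyclopamine, against 96.8 and 95.9 CPM in control. Shmt2, the mitochondrial serine hydroxymethyltransferase, measured 145 and 134 CPM in cyclopamine, against 144 and 138 CPM in control. Psph, the last enzyme of the pathway, had 13.9 and 13.3 CPM in cyclopamine, against 11.7 and 13.2 CPM in control. For Psat1, Phgdh and Shmt2 the groups overlapped, and for Psph the margin between them was 13.3 against 13.2 CPM.

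Set beside the promoter sequences, the 6 genes with a CARE match had a median log2 fold change of 0.40, from -0.00014 for Vldlr to 0.87 for Chac1. All 269 tested genes with a CARE match had a median of 0.028, and the 15 tested ATF4 targets, with or without a match, had a median of 0.34. The 8 genes with an ERSE match, 7 chaperones and Syvn1, had a median of 0.14, from -0.045 for Canx to 0.28 for Hspa5, and all 19 tested genes with an ERSE match had a median of 0.029. Herpud1, with both an ERSE-II and a CARE, stood at 0.44. The part of the motifs in these fold changes was not tested.

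Of 116 further pathway genes, 113 were tested and 0 passed the limma threshold in either direction. At an unadjusted p under 0.05, 7 (6.19%) were higher, against 3.04% of all genes tested, and 2 (1.77%) lower, against 2.78%, and the median log2 fold change was 0.059. Among 18 further genes of amino acid metabolism and transport, Slc6a9, a glycine transporter, had 31.2 and 36.7 CPM in cyclopamine, against 21.5 and 20.9 CPM in control (log2 fold change 0.66, SE 0.18, limma adjusted p = 0.287). Slc7a3, a cationic amino acid transporter, had 11.9 and 10.7 CPM in cyclopamine, against 5.26 and 7.93 CPM in control (0.76, SE 0.26, limma adjusted p = 0.583). Glul, glutamine synthetase, was lower in both cyclopamine libraries, at 158 and 154 CPM, against 199.5 and 204 CPM in control (-0.37, SE 0.15, limma adjusted p = 0.689).

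The 20 aminoacyl-tRNA synthetase genes, several of which ATF4 can induce, had a median log2 fold change of 0.037, with 12 above 0 and 0 past the threshold. Cars, the cysteinyl-tRNA synthetase gene, had 87.2 and 72.4 CPM in cyclopamine, against 48.4 and 61.6 CPM in control (0.54, SE 0.17, limma adjusted p = 0.435), without overlap of the groups. Among 18 further sensors and regulators, 0 passed, and the stress-induced factor gene Atf3 had 11.0 and 8.51 CPM in cyclopamine, against 6.91 and 4.70 CPM in control (0.72, SE 0.28, limma adjusted p = 0.678).

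Further genes of ER folding, degradation and export had small differences. The median log2 fold change was 0.014 over 16 other folding and redox genes, 0.12 over 14 other degradation genes and 0.075 over 20 genes of the translocon and ER exit, with 0 genes of these lists past the threshold in either direction. The other degradation genes included 6 (42.9%) with both cyclopamine libraries above both controls and 0 below, against 16.8% and 15.8% of all genes tested. One of the 6 was Derl1 at 71.9 and 65.0 CPM in cyclopamine, against 60.0 and 54.3 CPM in control. Among 10 further ATF4-linked outputs 7 were tested and 0 passed, with 3 log2 fold changes above 0 and 4 below. Their median was -0.014, against 0.34 for the ATF4 targets above. Fgf21, a stress hormone gene, was not tested, with 6 and 2 reads in cyclopamine and 0 reads in both controls. Of 15 hypoxia response genes, which include Ddit4 and Vldlr, 4 had a log2 fold change above 0 and 11 below, with a median of -0.034.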

How the data were processed

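The submitters' processing notes name build mm10 and, without roles, HTSeq 0.5.4p5, TopHat2 2.0.9, edgeR 3.4.2, SAMtools and Bowtie. How strand and multiply mapped reads were handled, and with which annotation, is not stated. The deposited signal is a count of reads per gene, scaled by the authors to about 1000000 per library (CPM). In each library, 100% of values were whole multiples (within 0.01) of 1 read's value, so reads were recovered. A second deposited table, of the authors' comparison, lists log2 fold changes, mean log2 CPM, p-values and false discovery rates, with the test not stated.

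Libraries were grouped by their titles and compared with limma 3.58.1 (R 4.3.3) on log2(CPM + 0.5), letting the variance follow the mean level (the intensity trend). The 13568 genes averaging 1 CPM or more entered. P-values are two-sided, adjusted by Benjamini-Hochberg across these genes and judged at 0.05, and fold changes understate low genes. Alternatives were edgeR 4.0.16 (quasi-likelihood) and DESeq2 1.42.0 on recovered reads, other scalings, pseudocounts and filters, no trend, a replicate block, and leaving out each library. The labels call the libraries biological replicates without naming embryos or cultures, so p-values measure the spread between these libraries. Every pair of libraries differed beyond sampling noise (chi-square over degrees of freedom at least 8.06). Reads carry no molecular identifiers, so read numbers give counting error only.

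The members, lists, roles and motifs were chosen with earlier results of these data known. Per-library values were given for up to 6 members of each role with the smallest p, up to 3 with the highest mean, and up to 3 genes per further list. Other per-library values, such as those of Ddit3, Asns, Phgdh, Psph, Vldlr, Fgf21, Derl1 and the markers, were chosen after they were seen. Levels between genes were compared per kilobase of GENCODE vM21 exon (GRCm38, equivalent to mm10). Exons of 13 of the 39 members overlap another annotated gene, 12 of them on the opposite strand. Promoter sequences are from RefSeq. One further marker gene is not reported here, and 2 of the 6 listed erythroid markers were not analysed here.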

Additional observations from a re-analysis of the deposited data

How the results depend on the processing

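The count of called genes over the whole table, 38, was 0 in limma with no trend of variance on level (837 at unadjusted p under 0.05, and 40 by edgeR), 20 when scaled to total reads, 2 without the expression filter and 351 with a replicate block, and it ran from 34 to 117 when each library was left out (the lone library of a group is assumed to vary like the other group); the cause was not tested. The count of called stress genes was 0 in the other scalings, pseudocounts, filters and tools. It ran from 0 to 2 when each library was left out, and it was 6 with the replicate block (Atf4, Trib3, Chac1, Sesn2, Ddit4 and Ppp1r15a, all higher, where 1.37% of all genes were called higher). The labels tie the replicate numbers to no litter, batch or day, and 2 pairs are too few to show a pairing. Deviations of same-numbered libraries from their group means correlated at 0.274 across genes.

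Leaving out each library gave 18 to 30 genes without overlap of the groups, against 11 with all libraries, since a group of 1 library overlaps less often by construction. Median log2 fold changes ran from 0.017 to 0.18 for chaperones, -0.12 to 0.32 for ER-associated degradation, 0.041 to 0.089 for sensors and transcription factors and 0.039 to 0.49 for ATF4 targets. Scaling to total reads turned Calr to 0.0062 and Vldlr to 0.0068. Leaving out a library turned the sign of 18 uncalled genes, whose log2 fold changes ran from -0.039 to 0.18 (Hsp90b1), -0.086 to 0.085 (Calr), -0.12 to 0.032 (Canx), -0.074 to 0.095 (Pdia4), -0.14 to 0.27 (Hyou1), -0.043 to 0.28 (Dnajb9), -0.031 to 0.47 (Dnajc3), -0.19 to 0.023 (Edem1), -0.18 to 0.36 (Sel1l), -0.24 to 0.34 (Syvn1), -0.051 to 0.015 (Xbp1), -0.15 to 0.0045 (Eif2ak4), -0.21 to 0.041 (Phgdh), -0.071 to 0.039 (Shmt2), -0.15 to 0.49 (Slc7a5), -0.15 to 0.29 (Slc3a2), -0.053 to 0.052 (Vldlr) and -0.036 to 1.26 (Ppp1r15a). The other alternatives kept the sign of the tested genes. At 2 libraries per group, the median half-width of a 95% interval for these genes was 0.38 on the log2 scale.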
